A study of Mus musculus with 48 samples.

Results

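The genes described here, in cultured kidney slices, belong to the epidermal differentiation complex of mouse chromosome 3: Sprr1a, Sprr1b, Sprr2f, Sprr2g and Sprr2h, which encode small proline-rich proteins, and Crct1, which encodes a cysteine-rich protein of the same complex and is not an Sprr gene. They were taken as the rows of the deposited count table whose Ensembl identifiers map to these symbols, 6 of 55487 genes. The genes were chosen by their large difference in level between slices under normoxia and 24 h control slices, so those levels are given below as a description without a test. The study sequenced messenger RNA from slices of kidney in 2 inbred mouse strains, C57BL/6J and DBA/2J, all male, in 48 libraries that form 16 groups of 3. Each strain was cultured under 8 conditions. Control slices, slices with tunicamycin and slices with cyclosporin A were each collected at 6 h and at 24 h. The other 2 conditions were normoxia, which the labels call an ischemia model, and normoxia followed by hyperoxia, which they call a reperfusion model. For these, the 24 h stands in the library titles. Tunicamycin blocks N-linked glycosylation and so burdens the endoplasmic reticulum, and cyclosporin A is a calcineurin inhibitor used against graft rejection that can injure the kidney. All groups share sex, tissue and slice culture, and no group of uncultured kidney was analysed here. Doses, the oxygen level of the controls and the time of the switch to hyperoxia are not given in the sources used here. The replicates are labelled as biological, without saying whether each came from a separate animal, so the p-values below measure the spread between these samples.

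The libraries held 5619309 to 25137581 counts (median 19607361). The lowest total was that of DBA/2J normoxia-hyperoxia replicate 2, and the next lowest was 12384733. Levels are given as counts scaled to a library total of 1000000 (CPM), with the SD over 3 libraries.

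The cornified envelope is the tough protein shell that forms under the plasma membrane of keratinocytes as they die at the skin surface. Small proline-rich proteins are short, repetitive and rich in proline, glutamine and lysine, and transglutaminases cross-link them to each other and to loricrin and involucrin in that shell. The family is not restricted to skin: its members are also switched on in other epithelia, and Sprr1a in nerve and heart, after injury or stress. Transcription of several family members is known to depend on AP-1, the dimer of Fos and Jun proteins. In a bulk library, a change in the number of cells that make a transcript and a change in the amount made per cell cannot be told apart.

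In GENCODE M21 (GRCm38) the 6 genes lie within 1 stretch of chromosome 3. Sprr2f (ENSMUSG00000050635) spans chr3:92365187-92366442, Sprr2g (ENSMUSG00000046203) chr3:92373915-92375229 and Sprr2h (ENSMUSG00000046259) chr3:92385685-92387324, all on the forward strand. Sprr1b (ENSMUSG00000048455) spans chr3:92436809-92438789, Sprr1a (ENSMUSG00000050359) chr3:92483952-92485895 and Crct1 (ENSMUSG00000027913) chr3:93014205-93015687, all on the reverse strand. The sequences below are the 250 bases before the RefSeq start (GRCm38.p6) of the 4 members in the RefSeq promoter table. They are shown because they carry matches to the same 2 short patterns. Capitals mark the AP-1-type letters TGANTCA, whose complement reads the same, and the TATA-type letters TATAAA, which were searched on both strands. The windows are chr3:92485882-92486131 for Sprr1a and chr3:92438780-92439029 for Sprr1b, both on the reverse strand, and chr3:92364937-92365186 for Sprr2f and chr3:92385435-92385684 for Sprr2h, both on the forward strand.
Sprr1a: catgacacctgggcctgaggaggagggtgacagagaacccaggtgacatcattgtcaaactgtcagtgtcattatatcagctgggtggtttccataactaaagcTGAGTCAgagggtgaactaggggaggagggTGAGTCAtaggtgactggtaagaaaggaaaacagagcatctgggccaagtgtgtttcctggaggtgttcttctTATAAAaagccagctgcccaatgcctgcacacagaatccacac
Sprr1b: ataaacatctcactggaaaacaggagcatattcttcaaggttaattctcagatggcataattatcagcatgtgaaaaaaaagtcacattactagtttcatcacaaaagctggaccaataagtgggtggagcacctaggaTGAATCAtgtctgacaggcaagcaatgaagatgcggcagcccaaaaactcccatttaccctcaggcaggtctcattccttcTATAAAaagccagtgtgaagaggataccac
Sprr2f: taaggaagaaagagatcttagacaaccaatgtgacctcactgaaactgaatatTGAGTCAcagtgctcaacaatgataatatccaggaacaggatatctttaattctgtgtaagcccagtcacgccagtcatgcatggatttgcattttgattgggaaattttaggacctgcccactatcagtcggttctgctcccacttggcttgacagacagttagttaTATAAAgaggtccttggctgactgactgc
Sprr2h: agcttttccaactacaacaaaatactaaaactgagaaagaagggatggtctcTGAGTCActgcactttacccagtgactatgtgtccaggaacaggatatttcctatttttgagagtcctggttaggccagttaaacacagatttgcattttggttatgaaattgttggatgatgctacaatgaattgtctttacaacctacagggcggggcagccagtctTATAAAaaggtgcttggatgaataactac
Each of these 4 windows holds TATAAA and at least 1 match to TGANTCA. Sprr1a has TGAGTCA at 146 and again at 116 bases before its start, and Sprr1b has TGAATCA at 111 bases. In Sprr2f and Sprr2h TGAGTCA begins 197 and 198 bases before the start. It begins at 193 to 196 bases in Sprr2b, Sprr2d, Sprr2e, Sprr2i and Sprr2k, so this placement is not particular to the members. TATAAA begins 29 bases before the start in Sprr2f and Sprr2h, 30 in Sprr1b and 43 in Sprr1a. Among 32851 RefSeq promoter windows of the same length, 6.75% held TGANTCA, 0.338% held it more than once and 12.4% held TATAAA. The STAT-type letters TTCNNNGAA, searched on both strands, were in 7.02% of all windows and in 0 of these 4. Of 10 other Sprr genes in the RefSeq table, 5 held TGANTCA and 6 held TATAAA. Sprr2b and Sprr2k held both and had at most 5 counts in any library, so the letters alone do not mark the genes that were read in kidney slices. A match is a description of the letters and not a measured binding site. Sprr2g and Crct1 are not in the promoter table.

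**Figure D1:**
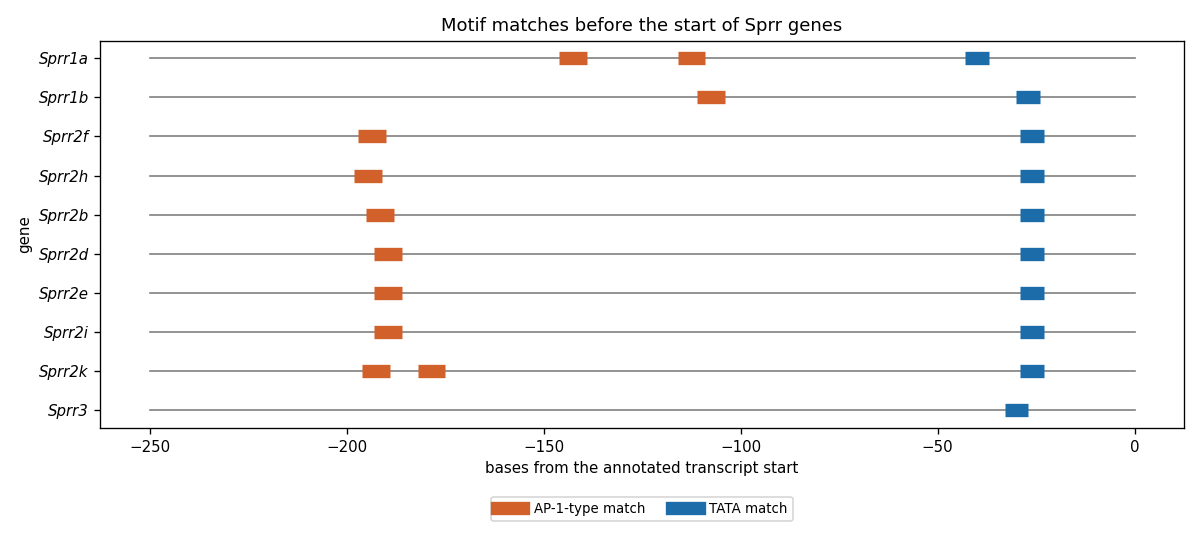
Positions of the AP-1-type and TATA-type letters in the 250 bases before the RefSeq start of 4 member genes and, below them, 6 other Sprr genes that hold either, in bases from the start (x axis), 1 row per gene. Every member row carries both marks, and Sprr1a carries 2 AP-1-type marks, at 146 and 116 bases before the start.

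The genes are similar but share few stretches of 50 bases with any other gene. The transcripts of Sprr2f and Sprr2g are 74.3% identical, those of Sprr1a and Sprr1b 71.2%, and those of Sprr2f and Sprr2h 66.9%. Of the 560 stretches of 50 bases in the Sprr2f transcript, 4 (0.714%) also occur in another gene, Sprr2e, and none of those of the other 5 members does. How reads that fit several genes were counted is not given in the sources used here.

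Sprr1a made up most of the reads of the group. It held 84.95% to 93.6% of the members' counts in every group other than normoxia, and the 6 genes together took 0.0631% to 0.101% of all counts at 6 h and 0.495% to 0.697% in controls and drug-treated slices at 24 h. Per kilobase of exon, C57BL/6J control slices at 24 h had 7956 CPM of Sprr1a, 409 of Sprr2f, 241 of Sprr2g, 190 of Sprr2h, 15.1 of Crct1 and 0.0586 of Sprr1b. The first of these is a level seen for few genes: Sprr1a ranked between 3 and 6 among 55487 genes by mean CPM in the 6 groups of controls and drugs at 24 h. At 6 h its rank lay between 84 and 154, and under normoxia it was 18412 in C57BL/6J and 17014 in DBA/2J.

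Sprr1a, a cross-linked envelope precursor, was read in every group. In 6 h control slices of C57BL/6J the 3 libraries had 613, 1135 and 725 CPM (824.6 ± 274.6, SD, n = 3), and those of DBA/2J had 523, 671 and 724 CPM (638.9 ± 104.2). By 24 h the C57BL/6J controls had 7026, 6388 and 5825 CPM (6413 ± 601) and the DBA/2J controls 4131, 6594 and 4633 CPM (5119 ± 1302). Every 24 h control library thus lay above every 6 h library, and the fold between the group means was 7.78 in C57BL/6J and 8.01 in DBA/2J. Replicate 2 was the highest of the 3 DBA/2J libraries in the controls and in both drugs at 24 h. Under normoxia the same gene had 8, 0 and 2 counts in the C57BL/6J libraries and 9, 3 and 6 counts in those of DBA/2J, or 0 to 0.369 CPM. With hyperoxia after normoxia the C57BL/6J libraries had 979, 642 and 1032 CPM and the DBA/2J libraries 569, 778 and 1043 CPM. The hyperoxia libraries overlapped the 6 h controls and stayed below all 24 h controls.

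Sprr2f, another envelope precursor of the complex, was highest in controls and drugs at 24 h and was not read under normoxia. In 6 h controls it had 45.1, 61.8 and 34.9 CPM in C57BL/6J and 15.9, 19.1 and 26.8 CPM in DBA/2J. At 24 h the controls had 241, 230 and 276 CPM in C57BL/6J and 139, 194 and 191 CPM in DBA/2J. The strains were separate at both times, with C57BL/6J the higher. With normoxia-hyperoxia the libraries had 102, 43.8 and 95.2 CPM in C57BL/6J and 24.3, 23.7 and 36.8 CPM in DBA/2J, again without overlap. Normoxia gave 0 counts in 6 of 6 libraries. Sprr2g, its close relative, ran from 20.3 to 57.4 CPM over the 18 libraries at 6 h, from 131 to 198 CPM over the 18 libraries of controls and drugs at 24 h and from 46.6 to 86.5 CPM with normoxia-hyperoxia. These 3 ranges overlap only between the 6 h and the hyperoxia libraries. Under normoxia Sprr2g had 1 count over the 3 C57BL/6J libraries and 5 counts over those of DBA/2J.

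Sprr2h was read at low level at 6 h. The 18 libraries at 6 h had 0.146 to 2.54 CPM, and the 18 libraries of controls and drugs at 24 h had 63.6 to 158 CPM. The 24 h controls were tightly grouped in C57BL/6J, at 143.4, 142.8 and 141.9 CPM, and lower in DBA/2J, at 99.3, 107.6 and 106.8 CPM. Against 6 h controls the group means were 85.1-fold higher in C57BL/6J and 250.4-fold higher in DBA/2J. Counted against Sprr2f, there were 2.00 to 3.76 Sprr2h counts per 100 Sprr2f counts in the 6 groups at 6 h and 43.2 to 70.5 in the 6 groups of controls and drugs at 24 h. The 2 genes therefore did not keep 1 ratio over the culture. Hyperoxia after normoxia gave 5.75, 2.82 and 4.39 CPM of Sprr2h in C57BL/6J and 6.20, 1.42 and 5.12 CPM in DBA/2J. That is 5.56 ± 0.92 Sprr2h counts per 100 of Sprr2f in C57BL/6J and 15.2 ± 9.82 in DBA/2J (SD, n = 3). The DBA/2J libraries ran from 6.02, in replicate 2 with 8 Sprr2h counts, to 25.5 in replicate 1, and without replicate 1 the mean was 9.965, an alternative chosen after seeing the data. Normoxia gave 0 counts in 6 of 6 libraries.

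Crct1 lies farthest from the Sprr genes and was read almost only at 24 h. No 6 h library had more than 6 counts. The 24 h controls had 12.4, 10.9 and 12.6 CPM in C57BL/6J and 37.5, 16.3 and 23.1 CPM in DBA/2J. With cyclosporin A at 24 h the values were 11.5, 8.78 and 10.6 CPM in C57BL/6J and 31.3, 22.8 and 14.8 CPM in DBA/2J. Tunicamycin at 24 h gave 3.75, 4.59 and 8.36 CPM in C57BL/6J and 10.4, 13.2 and 7.32 CPM in DBA/2J. The tunicamycin libraries lay below the controls and the cyclosporin A libraries of their own strain, and DBA/2J was the higher strain in controls and with cyclosporin A without overlap. Normoxia-hyperoxia gave at most 10 counts in a library and normoxia 0 in 6 of 6. By its group means Crct1 was higher in DBA/2J than in C57BL/6J in all 3 of those conditions, opposite to Sprr2f.

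Sprr1b was hardly read. Its promoter window holds TATAAA and TGAATCA, where that of Sprr1a holds TATAAA and TGAGTCA at 2 places. All 18 libraries at 6 h had 0 counts, and 12 of the 18 libraries of controls and drugs at 24 h had counts, with at most 7. Of those 12, 8 were DBA/2J libraries and 4 were C57BL/6J libraries, of 9 each. One hyperoxia library of DBA/2J had 1 count, and normoxia gave 0. Sprr1b entered no fit below. It was read in more libraries of controls and drugs at 24 h than at 6 h, and its counts are too few to give the size of a difference between groups.

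**Figure D2:**
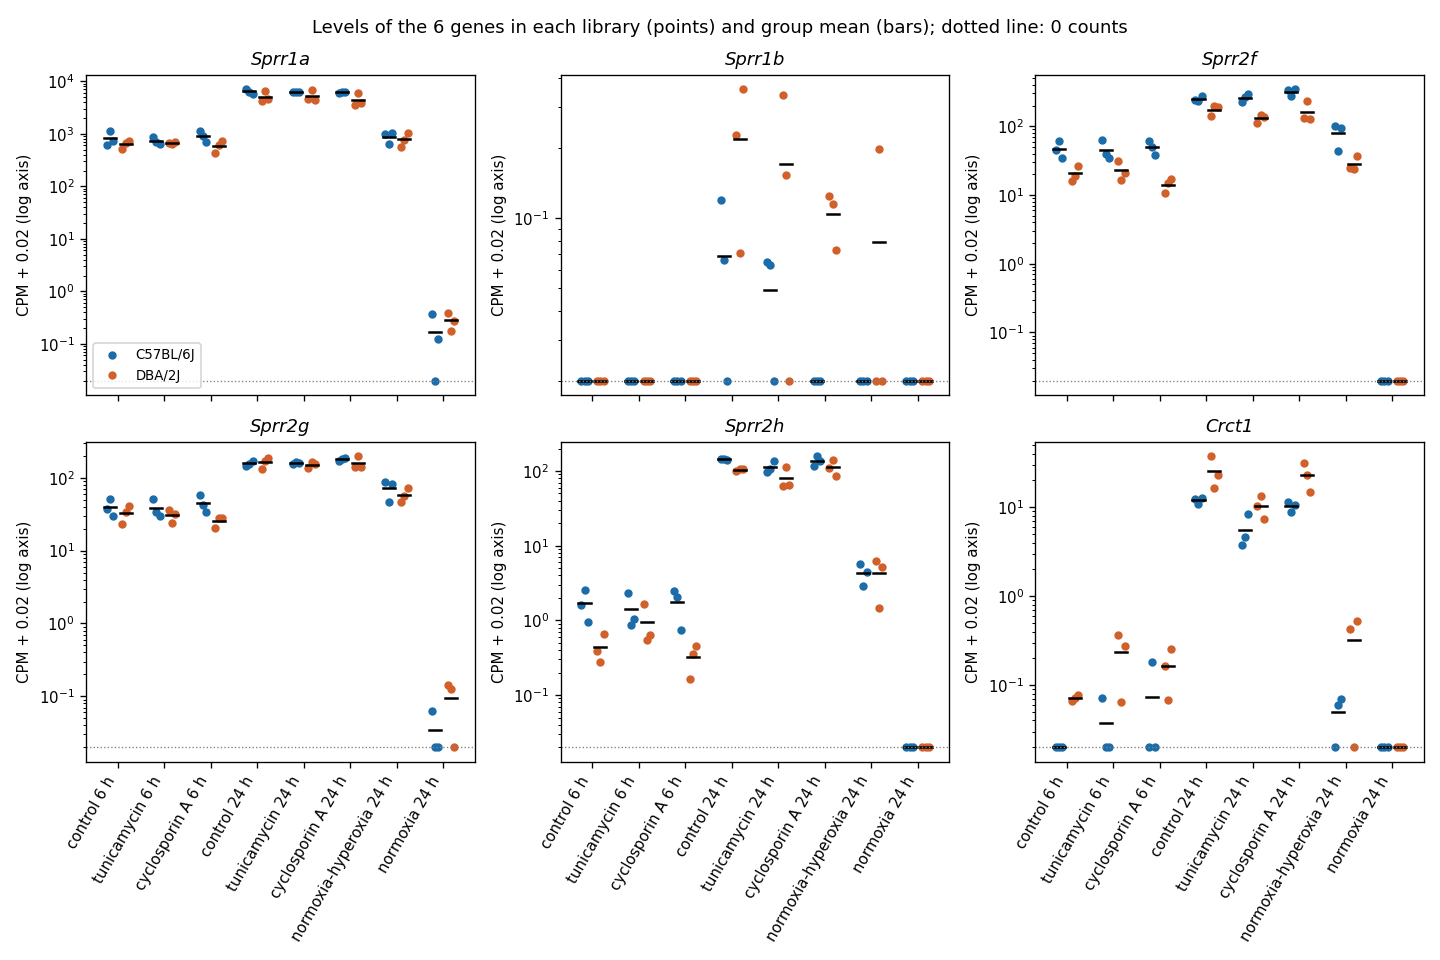
Level of each member gene as CPM plus 0.02 (y axis, log scale) in each of the 48 libraries, by condition (x axis) and strain, with 1 point per library and a bar at each group mean. The 24 h controls and drugs form the highest block for 5 genes, Sprr1b stays at a few counts, and the 6 normoxia libraries lie at or near 0 for all 6 genes.

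The contrast by which the genes were picked was extreme in size. The mean of Sprr1a was 42568-fold higher in 24 h controls than under normoxia in C57BL/6J and 19762-fold higher in DBA/2J. For C57BL/6J, the fold of the pooled counts was 40703, with a 95% interval of 22132 to 84880 that covers counting error only. Sprr2f was at least 1629-fold higher in C57BL/6J controls and at least 1117-fold higher in DBA/2J controls, with normoxia set at 3 counts in the smallest library of the group. Sprr2h was at least 932-fold and at least 669-fold higher, and Crct1 at least 78.1-fold and at least 164-fold. In the fit of normoxia against 24 h controls 82% of 17375 genes passed an adjusted p of 0.05, and nothing is read from the members there. The C57BL/6J fold of Sprr1a rests on 10 counts under normoxia, and without normoxia replicate 1, which had 8 of them, it was 125740. This alternative was also chosen after seeing the data. With hyperoxia after normoxia Sprr1a, Sprr2f, Sprr2g and Sprr2h were read in all 6 libraries. Relative to normoxia, Sprr1a was 5871-fold higher in C57BL/6J (17341-fold without normoxia replicate 1) and 3076-fold higher in DBA/2J, Sprr2f at least 525-fold and at least 181-fold, and Sprr2h at least 28.2-fold and at least 27.2-fold. By their titles, normoxia and normoxia-hyperoxia libraries belong to an ischemia and reperfusion experiment and the controls to a nephrotoxicity experiment. No batch is labelled, and condition and experiment cannot be told apart in the folds against controls.

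The comparisons below were not used to choose the genes and were tested with edgeR's quasi-likelihood test, with Benjamini-Hochberg adjustment over all genes fitted, each on 12 libraries and averaged over the strains. Differences are on the log2 scale with the standard error (SE), and a gene was called at an adjusted p under 0.05. The first question was whether the members differ between 6 h and 24 h also in slices that received a drug. With tunicamycin, Sprr1a had 864, 688 and 634 CPM in C57BL/6J and 654, 632 and 707 CPM in DBA/2J at 6 h. At 24 h it had 6208, 6189 and 6150 CPM in C57BL/6J and 4665, 6907 and 4351 CPM in DBA/2J. No 24 h library came near a 6 h library, and Sprr1a rose by 2.83 (SE 0.130, adjusted p = 1.69e-09, edgeR). Sprr2f rose by 2.31 (SE 0.193) and Sprr2g by 1.97 (SE 0.139). Sprr2h rose by 6.21 (SE 0.315, adjusted p = 5.75e-08, edgeR), the largest of the fitted Sprr differences. Sprr1a, Sprr2f, Sprr2g and Sprr2h were each called, against a background of 70.9% of 17134 genes called and 34.7% called upward. A call is thus common in this comparison, and the median over all genes was -0.03. Crct1 entered this fit only through its 24 h libraries, so its rise is given as a ratio of pooled counts, 296.8 (95% interval 52.9 to 11760, counting error only) in C57BL/6J from 1 count at 6 h, and 52.2 (29.7 to 101.6) in DBA/2J from 12 counts.

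With cyclosporin A over the same time Sprr2h again had the largest and Sprr2g the smallest difference of the fitted Sprr genes. Sprr1a had 1112, 921 and 709 CPM at 6 h and 5960, 6221 and 6371 CPM at 24 h in C57BL/6J, and it had 435, 619 and 719 CPM at 6 h and 3596, 6058 and 3823 CPM at 24 h in DBA/2J. It rose by 2.56 (SE 0.165, adjusted p = 4.19e-08, edgeR). Sprr2f rose by 2.82 (SE 0.190), Sprr2g by 2.04 (SE 0.135) and Sprr2h by 7.12 (SE 0.264), and all 4 were called, against 70% of 17149 genes called and 34% called upward. The median over all genes was -0.02. Crct1 was again read through its 24 h libraries, with a pooled ratio of 189.9 (95% interval 64.7 to 923.4) in C57BL/6J, where the 3 counts at 6 h were all in replicate 2, and 160.4 (84.2 to 351.5) in DBA/2J from 9 counts. Whether the rise differed between the strains was tested as an interaction. It was called for 0 of the 4 Sprr genes with tunicamycin and 0 of 4 with cyclosporin A (edgeR, Crct1 not counted), where 0.379% and 0.262% of all genes were called. At an unadjusted p under 0.05 these counts were 0 and 3, where 1936 of 17134 and 2408 of 17149 genes passed. DESeq2 called 0 and 1 of them, the latter being Sprr2h, beside 253 and 396 genes called.

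**Figure D3:**
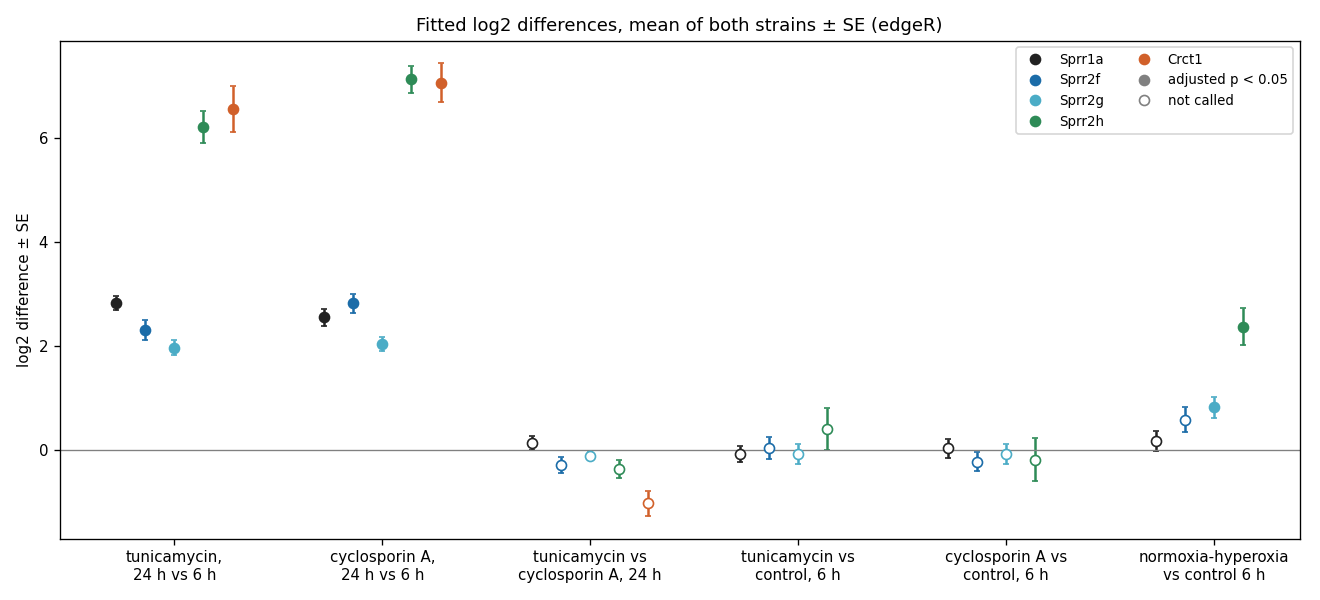
Log2 difference with its standard error (y axis) for the fitted members in each tested comparison, from edgeR over 12 libraries each, filled where the adjusted p was under 0.05. Sprr2h lies at 6.21 and 7.12 in the 2 comparisons of 24 h with 6 h under a drug, above Sprr1a at 2.83 and 2.56, while all points of the drug comparisons at 6 h are open and lie about 0. Crct1 in the first 2 comparisons is drawn as fitted, and its counts at 6 h are too few to bound that value.

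The 2 drugs were compared with each other at 24 h. No member was called (0 of 5, edgeR), where 1.31% of 17231 genes were. Of all genes 1951 passed at an unadjusted p under 0.05, among them 1 member. That was Crct1, the cysteine-rich gene, at -1.02 in tunicamycin against cyclosporin A (SE 0.240, adjusted p = 0.0738, edgeR), with all libraries of tunicamycin below all of cyclosporin A in both strains. The adjusted p of Crct1 ranged from 0.0013 to 0.207 over the other settings. It was called by DESeq2 (0.0013), in 1 fit of all 48 libraries, with the replicate number as a block (0.0258), without C57BL/6J tunicamycin replicate 3 and without DBA/2J cyclosporin A replicate 3. Sprr1a differed by 0.15, Sprr2f by -0.28, Sprr2g by -0.10 and Sprr2h by -0.35, none of them called, and the libraries of the 2 drugs overlapped in both strains for Sprr1a, Sprr2f and Sprr2h. Crct1 therefore stands lower with tunicamycin in its values, and the call depends on the setting.

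At 6 h neither drug moved a member past the threshold. Tunicamycin against control gave -0.07 for Sprr1a, 0.05 for Sprr2f, -0.07 for Sprr2g and 0.42 for Sprr2h (SE 0.404). With cyclosporin A the values were 0.04, -0.21, -0.07 and -0.17 in the same order. For either drug 0 of 4 fitted members were called and 0 at an unadjusted p under 0.05 (edgeR), and DESeq2 called 0. The background was the same: 0.0% of 16551 genes for tunicamycin, with 281 at an unadjusted p under 0.05, and 0.0% of 16538 for cyclosporin A, with 734. DESeq2 called 45 genes for cyclosporin A. All 6 h drug libraries overlapped the 6 h controls of their strain for each of the 6 genes. These comparisons and the next share the 6 h control libraries.

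Slices with normoxia followed by hyperoxia were set against the 6 h controls, neither of which had a role in the choice of the genes. Time in culture and experiment differ in this comparison, and oxygen may differ, since its level in the controls is not given. Their parts cannot be told apart. Sprr2h rose by 2.38 (SE 0.362, adjusted p = 0.000145, edgeR), with the hyperoxia libraries above the controls in both strains. Sprr2g rose by 0.82 (SE 0.206, adjusted p = 0.00672, edgeR), without overlap in DBA/2J and with overlap in C57BL/6J. Sprr2f was 0.59 higher (SE 0.237, adjusted p = 0.0636) and was not called, and Sprr1a differed by 0.18 (SE 0.191, adjusted p = 0.481). The 2 calls stand against 44.9% of 16841 genes called and 22.4% called upward. The adjusted p of Sprr2f ranged from 2.39e-09 to 0.168 over the other settings: it was called with no low-count filter, by DESeq2 (0.0245), in the fit of all libraries (0.0254) and when C57BL/6J control 6 h replicate 2, DBA/2J control 6 h replicate 3 or C57BL/6J normoxia-hyperoxia replicate 2 was left out. An interaction with strain was called for 0 of 4 members (edgeR), with 0.232% of all genes called. At an unadjusted p under 0.05 it was 1 of 4, beside 1672 of 16841 genes, and DESeq2 called 0 members. The Sprr2 differences thus ran from 0.59 to 2.38, with 2 of the 3 called, and that of Sprr1a was below its SE.

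The strains were compared within each condition, as DBA/2J minus C57BL/6J. The 24 h controls are among them: their level against normoxia chose the genes, and their difference between strains did not. Crct1 is not counted at 6 h, because it passed the filter only through 24 h libraries. Sprr2f was below C57BL/6J in 7 of 7 conditions, by 0.55 to 1.94 on the log2 scale, and was called in 6 of them. In 6 h controls the difference was -1.35 (SE 0.235, adjusted p = 0.00154, edgeR). There 2 of the 4 Sprr genes were called, against 26.2% of all genes. The other was Sprr2h at -2.15 (SE 0.369, adjusted p = 0.000843), which rests on 24 DBA/2J counts and 91 C57BL/6J counts. With cyclosporin A at 6 h, 4 of 4 were called against a background of 29.6%: Sprr1a at -0.75, Sprr2f at -1.94, Sprr2g at -0.91 and Sprr2h at -2.59, the last resting on 19 DBA/2J counts and 92 C57BL/6J counts. With tunicamycin at 6 h, 1 of 4 was called against 23% of all genes, Sprr2f at -1.10 (SE 0.270, adjusted p = 0.0154). The condition with normoxia-hyperoxia gave 1 of 4 against 20.9%, Sprr2f at -1.58 (SE 0.340, adjusted p = 0.00708). Each share is of 4 genes, and Sprr2f is called in all 4 of these conditions. The 7 conditions are separate libraries of the same strains.

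At 24 h Crct1, the cysteine-rich gene, was fitted as well, with DBA/2J the higher strain. Controls at 24 h gave 2 calls of 5 against 22.2% of all genes, Sprr2h at -0.48 (adjusted p = 0.0355, edgeR) and Crct1 at 1.08 (SE 0.249, adjusted p = 0.00886, edgeR). Tunicamycin gave 1 of 5 against 15.8%, Sprr2f at -1.03 (adjusted p = 0.0226, edgeR), with Crct1 at 0.88 (adjusted p = 0.1). Cyclosporin A gave 2 of 5 against 15.1%, Sprr2f at -1.06 (adjusted p = 0.0165, edgeR) and Crct1 at 1.07 (SE 0.299, adjusted p = 0.0311, edgeR). Several of these calls depend on single libraries. The Sprr2h call in 24 h controls was lost when any 1 of the 6 control libraries at 24 h was left out (adjusted p 0.0536 to 0.111) and in the fit of all libraries (0.239). The Crct1 call with cyclosporin A was lost without C57BL/6J replicate 1, 2 or 3 or without DBA/2J replicate 1, and with no filter (0.0539). The Sprr2f call was lost with cyclosporin A at 24 h without C57BL/6J replicate 1 or 3 or DBA/2J replicate 1 or 3, with tunicamycin at 24 h without C57BL/6J replicate 3 or DBA/2J replicate 1 or 3, and with tunicamycin at 6 h without C57BL/6J replicate 1 or DBA/2J replicate 2 or 3. The Sprr1a call with cyclosporin A at 6 h was lost without C57BL/6J replicate 1 or 2 or DBA/2J replicate 1, while without DBA/2J replicate 2 Sprr1a was called at 24 h with tunicamycin (0.0282) and with cyclosporin A (0.0256). Without C57BL/6J replicate 3 Crct1 was called with tunicamycin at 24 h (0.0338). Sprr2f was called in 24 h controls when C57BL/6J control 6 h replicate 2, which is in the same fit, was left out (0.0497). The Sprr2f calls in 6 h controls, with cyclosporin A at 6 h and with normoxia-hyperoxia held in every setting run. With no low-count filter the Sprr2f calls with tunicamycin at 6 h (0.0585) and 24 h (0.0776) and with cyclosporin A at 24 h (0.0635), and the Sprr1a call (0.08), were lost as well. The same setting gained calls (edgeR, adjusted p). They were Sprr1a (0.00316) and Sprr2f (3.1e-06) in 24 h controls, Sprr1a (0.000221) and Sprr2g (0.0108) in 6 h controls and Sprr2g (0.0161) with normoxia-hyperoxia. Reads of both strains were mapped to GRCm38, which is the C57BL/6J genome, and the effect of DBA/2J variants on the counts was not tested.

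**Figure D4:**
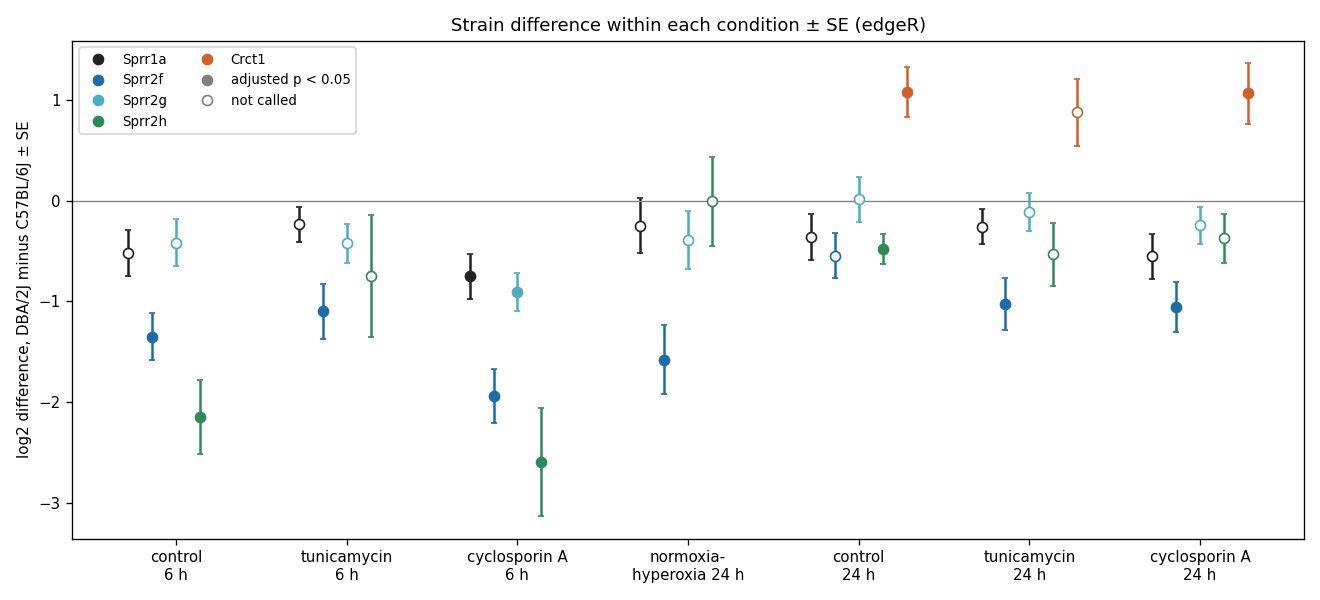
Log2 difference between strains (DBA/2J minus C57BL/6J, y axis) with its standard error for each fitted member in each of 7 conditions, filled where the adjusted p was under 0.05. Sprr2f lies below 0 in all 7 conditions, and Crct1 lies above 0 in the 3 conditions at 24 h that are drawn.

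The rest of the complex was read from lists of its genes, with the count called and the median beside that of all genes. Counts over time are of genes that passed the low-count filter both at 6 h and at 24 h, since a gene that passed only at 24 h had to rise. Beside them stand the median over all genes, -0.03 with tunicamycin and -0.02 with cyclosporin A, and the 70.9% and 70% of genes called. Of 11 other Sprr genes in the table, 2 passed at both times, and both rose with tunicamycin (median 2.64) and with cyclosporin A (median 3.48), while Sprr2i passed through its 24 h libraries. Sprr2e rose by 2.74 (SE 0.195) and 3.42 (SE 0.277) and Sprr2d by 2.53 (SE 0.267) and 3.54 (SE 0.429), sizes between those of Sprr2f and Sprr2h. Their levels were low, since the 11 genes together reached 18.5 CPM at most in controls at 24 h. Sprr3, the esophageal member of the family, had at most 1 count in a library. Under normoxia all 11 had 0 counts in all 6 libraries.

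The partners of the small proline-rich proteins in the envelope moved only in part with them. Among other envelope genes of the complex, 3 rose and 2 fell of 6 with tunicamycin (median 1.01) and 4 rose and 2 fell of 7 with cyclosporin A (median 2.31). A further 3 and 2 passed at 1 time alone. Ivl, which encodes involucrin, rose by 2.84 (SE 0.202) with tunicamycin and 3.10 (SE 0.201) with cyclosporin A. Lor, which encodes loricrin, rose by 2.49 (SE 0.168) and 2.82 (SE 0.229). Of 9 S100 genes, which encode small calcium-binding proteins, 6 rose and 2 fell with either drug (medians 0.73 and 0.89), led by S100a7a at 4.06 and 4.95 and S100a6 at 3.23 and 3.64. Tgm1, the transglutaminase that joins these proteins in skin, went the other way and fell by 1.25 (SE 0.223, adjusted p = 0.000377, edgeR) with tunicamycin and by 1.11 (SE 0.292, adjusted p = 0.00623, edgeR) with cyclosporin A. Genes of envelope assembly outside the complex were mixed, 4 higher and 4 lower of 12 with tunicamycin (median -0.18) and 4 higher and 3 lower of 12 with cyclosporin A (median -0.13). Sbsn, which encodes suprabasin, rose by 3.15 and 3.97. Lelp1 with tunicamycin and Cnfn with either drug passed the filter through their 24 h libraries, so no rise is given for them. Between the drugs at 24 h, where 1.31% of all genes were called, 1 of 10 other envelope genes of the complex, 2 of 10 S100 genes, 0 of 15 assembly genes and 0 of 3 other Sprr genes were called. All 3 were lower with tunicamycin: the late cornified envelope gene Lce1g at -2.04, S100a6 at -0.51 and S100a10 at -0.34.

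With normoxia-hyperoxia against 6 h controls, Sprr2e rose by 2.07 (SE 0.318) and Sprr2d by 1.14 (SE 0.269), both of the 2 testable Sprr genes outside the member list. Ivl differed by 0.55 (SE 0.353, adjusted p = 0.225, edgeR) and Lor rose by 0.89 (SE 0.247). Tgm1 fell by 2.21 (SE 0.198). The other envelope genes of the complex gave 2 higher and 3 lower of 6, with a median of -0.22 beside 0.02 over all genes and 44.9% of genes called, and the lower ones were Tchh at -0.99 and Tchhl1 at -1.78, both genes of the trichohyalin kind, and Smcp at -2.08, a gene of sperm mitochondria that lies in the complex. The S100 genes gave 7 higher and 0 lower of 10, with a median of 0.39. In the same comparison 4 of 10 kidney epithelium markers fell and 2 rose, and 4 of 6 immune markers rose and 0 fell. The genes that fell include Slc34a1 at -3.98, Lrp2 at -3.5 and Cubn at -3.89, all of the proximal tubule, while the 10 summed to 12408 to 20592 CPM with normoxia-hyperoxia. Their part in the members' differences was not tested. The list of other envelope genes thus held both directions in this comparison: Lor rose, Ivl was not called, and the lower genes were Tchh, Tchhl1 and Smcp.

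**Figure D5:**
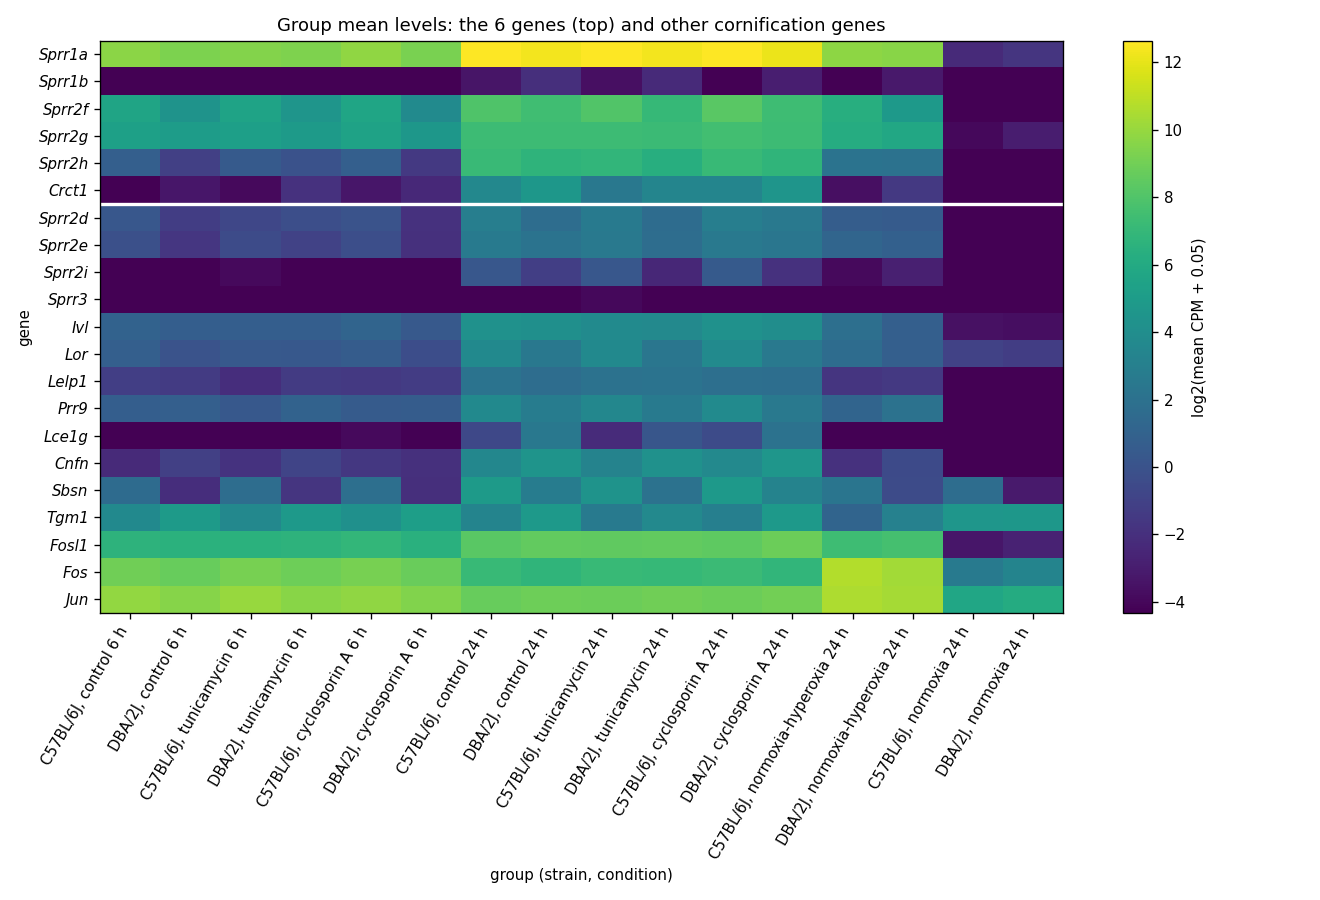
Mean level in each of the 16 groups (columns) of the members and of other genes of the envelope and its regulators (rows), as log2 of CPM plus 0.05, on 1 colour scale from dark (low) to bright (high). The normoxia columns hold the lowest value, or share it, in the Sprr rows and in Fosl1, and Sprr1a is brightest in 24 h controls and drugs.

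Since the printed promoters hold AP-1-type letters, the genes of the AP-1 subunits and of other factors of epidermal differentiation were read beside the members. Fosl1, which encodes the Fos relative Fra-1, had group means of 86.6 to 120.7 CPM at 6 h, 313 to 449 CPM in controls and drugs at 24 h, 164 and 203 CPM with normoxia-hyperoxia and 0.0505 and 0.101 CPM under normoxia. It rose by 1.72 (SE 0.105) over time with tunicamycin and by 1.67 (SE 0.142) with cyclosporin A. Fos and Jun fell over the same time, Fos by 2.17 and 2.21 and Jun by 1.12 and 0.98. With normoxia-hyperoxia against 6 h controls Fos rose by 1.59 (SE 0.0891), Jun by 0.72 (SE 0.0882), Fosl1 by 0.90 (SE 0.195) and Klf4, which encodes a barrier factor of skin, by 1.40 (SE 0.0929). Under normoxia the means were 6.01 and 9.83 CPM for Fos and 52.8 and 68.3 CPM for Jun, the lowest of the 16 groups. Of 20 factors, 4 rose and 9 fell with tunicamycin over time (median -0.46), 5 rose and 11 fell with cyclosporin A (median -0.41), and 11 rose and 1 fell with normoxia-hyperoxia (median 0.34). These stand beside 70.9%, 70% and 44.9% of all genes called. With normoxia-hyperoxia 22.4% of all genes were called upward. Of the 3 AP-1 subunits given here with values, Fosl1 is the one that shared the members' rise from 6 h to 24 h. Whether any of them acts on these promoters was not tested.

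Markers of other cell types that a slice could hold were read in the same libraries. Of the urothelium markers, Krt20 held most of the signal in every condition other than normoxia. The summed level of the list was 8.79 to 35.9 CPM at 6 h, 19.5 to 99.7 CPM in controls and drugs at 24 h, 10.1 to 54.6 CPM with normoxia-hyperoxia and 1.88 to 4.90 CPM under normoxia. Krt20, which is also known as a marker of injured kidney tubules, had 0.0510 to 0.261 CPM under normoxia. Over time it rose by 1.25 (SE 0.222) with cyclosporin A, and with tunicamycin it was 0.51 higher (SE 0.325, adjusted p = 0.181, edgeR) and not called. Of the urothelium markers that passed the filter at both times, 0 of 3 were called with tunicamycin and 1 of 3 with cyclosporin A. The uroplakins that define the urothelium were near 0, with at most 2 counts of Upk2 and 3 of Upk3a in any library, and Upk1a did not exceed 3.01 CPM. Of the keratinocyte markers, Krt2 had 0 counts in every library, Krt1 at most 4 and Krt14 and Flg at most 2. Krt5, a keratin of basal cells of skin and urothelium, went from 0 to 0.116 CPM at 6 h to 0.293 to 6.59 CPM in controls and drugs at 24 h, and was 0 in all normoxia libraries. Dsg3, a desmosome gene of keratinocytes, was at 0 in all 6 h libraries, had group means of 0.321 to 0.901 CPM in controls and drugs at 24 h and at most 0.0521 CPM in a normoxia library. Krt10, a keratin of differentiating skin, went the other way: it fell by 0.64 (SE 0.145) with tunicamycin and by 0.58 (SE 0.171) with cyclosporin A, and its highest group mean was 10.3 CPM, in DBA/2J normoxia. Trp63, which stands in the urothelium and the keratinocyte list, also had its highest group means under normoxia, 0.979 and 1.29 CPM. Its group means were 0.246 to 0.969 CPM at 6 h and 0.319 to 0.707 CPM in controls and drugs at 24 h. The keratinocyte list, which holds the complex gene Lor, summed to 5.62 to 12.7 CPM at 6 h, 12.2 to 27.2 CPM at 24 h in controls and drugs, 3.92 to 7.83 CPM with normoxia-hyperoxia and 5.84 to 12.8 CPM under normoxia. A sum of levels does not measure the share of a cell type. Kidney epithelium markers, 10 of 10 of them, fell over time with either drug, from a summed 13245 to 18774 CPM at 6 h with tunicamycin to 3709 to 9607 CPM at 24 h. They summed to 14344 to 20233 CPM under normoxia. Immune markers summed to 82.3 to 253.1 CPM over all groups other than the 6 h controls and drugs and 81.5 to 148.8 CPM in those. The immune list gave 1 higher and 3 lower of 6 over time with tunicamycin and 1 higher and 4 lower of 6 with cyclosporin A. The 1 that rose was Cd68, a lysosomal marker of macrophages, whose group means were 28.7 to 46.4 CPM at 6 h, 70.8 to 111.0 CPM in controls and drugs at 24 h, 39.7 and 74.7 CPM with normoxia-hyperoxia and 8.96 and 8.02 CPM under normoxia. It rose over time by 1.07 (SE 0.111) with tunicamycin and by 0.81 (SE 0.128) with cyclosporin A. Ptprc, the common leukocyte marker, fell by 0.91 and 0.98, and Csf1r, a receptor gene of macrophages, by 0.66 and 0.68. Csf1r had group means of 68.8 and 56.6 CPM under normoxia and 23.9 and 34.2 CPM in 24 h controls, the opposite order to the members. The part of these cell types in the members' levels was not tested.

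The 16 group means include those by which the genes were chosen, so their likeness to each other is a description. Over them Pearson's r between each gene and the mean of the other members was 0.85 for Sprr1a, 0.89 for Sprr2f, 0.88 for Sprr2g, 0.90 for Sprr2h, 0.82 for Crct1 and 0.58 for Sprr1b, which had few counts. All points share their libraries. When the 16 groups were put in order of mean level, 13 of 15 neighbouring pairs overlapped for Sprr1a, Sprr2g and Sprr2h, 12 of 15 for Sprr2f and Crct1 and 15 of 15 for Sprr1b. Neighbours in such an order are close by its making, some are groups at 0, and no like count over all genes is given. Nothing is read from these counts about differences between groups. Among 14266 named genes outside the group, the closest to the mean standardized member profile over the 16 group means of log2(CPM + 0.5) were Cast (r = 0.994), which encodes calpastatin, Pdpk1 (0.993), a protein kinase gene, Flii (0.993), an actin-regulator gene, Zc3h7a (0.991), a zinc finger gene, and Nmt2 (0.990), an N-myristoyltransferase gene. Their range was far narrower than that of the members: Cast ran from 51.0 CPM in DBA/2J normoxia to 309.4 CPM in DBA/2J 24 h controls. The likeness is over 16 points that fall into a few blocks of conditions, and 1780 of the 14266 genes had r over 0.9.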

How the data were processed

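Messenger RNA of 48 kidney slice libraries was measured by RNA-seq. Per the labels' protocols, a Qiagen midi kit gave the RNA and an Illumina ligation prep the stranded libraries. The submitters' processing notes name bcl2fastq 2.20.0, FastQC 0.11.8, STAR 2.7.9a, featureCounts 1.5.1 and GRCm38. The strand setting, the treatment of reads with several matches and the annotation release are not given in the sources used here, so overlapping or antisense genes could add to a count. The authors deposited whole-number counts per gene, not normalized, for 55487 Ensembl identifiers, of which 55141 matched a symbol. The annotated gene models used for coordinates and exon lengths are GENCODE M21, and promoters are from RefSeq.

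Strain, condition and replicate come from the labels. CPM was computed from each library's own total. Each comparison was fitted on its 12 libraries in 4 groups with edgeR 4.0.16 (R 4.3.3, limma 3.58.1): TMM factors, the default low-count filter, a robust quasi-likelihood fit and Benjamini-Hochberg adjustment over all genes, with a call at 0.05. The code was tested on simulated data. For fold limits, a group at 0 was set at 3 counts in its smallest library, and 95% intervals of pooled count ratios cover counting error only. Sequence work used Python 3.11.15 and Biopython 1.88. Alternatives were RLE factors, no filter, DESeq2 1.42.0, 1 fit of all 48 libraries, a block for the replicate number, and fits without each single library.

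The members and the gene lists were chosen with earlier results of these data known. The genes named are all members, up to 3 genes per list with the smallest p among those called with a mean of at least 1 CPM, Tgm1, Ivl, Sprr3 and Fosl1, and the 5 genes of most like pattern. Jun and Fos under normoxia, Krt20, Krt5, Dsg3, Trp63, the uroplakins, Krt1, Krt2, Krt14 and Flg are given as levels, and Krt20 also with its test under tunicamycin, chosen after their values were seen.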

Additional observations from a re-analysis of the deposited data

How the results depend on the processing

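Depth limits Sprr1b everywhere and Crct1 and Sprr2h at 6 h and under normoxia, where a few counts decide a value. Each test rests on 3 libraries per strain and condition, and leaving 1 out leaves 2 in that group. The rises over time under both drugs kept their direction and their call for Sprr1a, Sprr2f, Sprr2g and Sprr2h in every alternative run, as did Sprr2h and Sprr2g with normoxia-hyperoxia against 6 h controls. Pairing by replicate number was not shown for all pairs, and the labels do not say whether 1 animal gave slices to several conditions. Over 6 pairs their correlations ran from -0.234 to 0.172 for tunicamycin 24 h against 6 h and from 0.0301 to 0.313 for tunicamycin against control at 6 h, and in no comparison were all 6 over 0.1. Within 1 strain all 3 were, at 0.11 to 0.313 for tunicamycin against control at 6 h in C57BL/6J and, in DBA/2J, 0.166 to 0.291 for cyclosporin A 24 h against 6 h and 0.148 to 0.193 for normoxia-hyperoxia against control at 6 h. A replicate block was therefore an alternative only. It raised the count of genes called between the drugs at 24 h from 225 to 468 and of members from 0 to 1 (Crct1), and lowered the count of strain interactions with tunicamycin from 65 to 17. It was not run for the strain differences, which are constant within a block.

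Small differences changed sign when single libraries were left out. The ranges were -0.049 to 0.205 for Sprr1a, -0.175 to 0.066 for Sprr2g and -0.334 to 0.05 for Sprr2h with cyclosporin A against control at 6 h, and -0.153 to 0.093 for Sprr1a, -0.112 to 0.174 for Sprr2f and -0.208 to 0.053 for Sprr2g with tunicamycin at 6 h. The strain difference of Sprr2g in 24 h controls ranged from -0.101 to 0.141 and was -0.037 with no filter and -0.004 with RLE factors and with DESeq2. That of Sprr2h with normoxia-hyperoxia ranged from -0.33 to 0.312 and was 0.004 with no filter, 0.006 with RLE factors and 0.097 in the fit of all 48 libraries. None of these was called.

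Counts of genes called moved more. Cyclosporin A against control at 6 h gave 0 to 1 when 1 library was left out, 4 with no filter and 45 with DESeq2. Tunicamycin against cyclosporin A at 24 h gave 78 to 299 with 1 library left out, 412 in the fit of all 48 and 509 with DESeq2. Strain differences ranged with 1 library left out from 1677 to 2945 with cyclosporin A at 24 h (main count 2582, 4018 in the fit of all 48), from 2962 to 6106 with cyclosporin A at 6 h (5073), from 1675 to 2850 with tunicamycin at 24 h (2706) and from 2505 to 4718 with tunicamycin at 6 h (3944). Strain interactions over time with cyclosporin A were 45, and 12 to 343 with 1 library left out, 188 with no filter, 396 with DESeq2 and 483 in the fit of all 48. With tunicamycin they were 25 to 108, 134, 253 and 187 in the same order. For normoxia-hyperoxia against 6 h controls they were 39, and 11 to 80, 712, 245 and 100.

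Counts of fitted members called, Crct1 included, moved by 1 or 2 genes. Between the drugs at 24 h the count was 0 to 1 with 1 library left out and 1 with DESeq2 and in the fit of all 48. Among strain differences it was 1 to 3 in 24 h controls with 1 library left out, 4 with no filter and 1 in the fit of all 48. It was 4 in 6 h controls with no filter, and 2 with normoxia-hyperoxia with no filter and in the fit of all 48. With cyclosporin A at 24 h it was 0 to 3 with 1 library left out and 0 with no filter. Tunicamycin at 24 h gave 0 to 2 and 0 in the same order, and at 6 h 0 to 1 and 0, with 2 by DESeq2. The strain interaction with cyclosporin A gave 0 to 1 with 1 library left out and 1 by DESeq2, and that with normoxia-hyperoxia gave 1 with no filter. The cause of these changes was not tested.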
